A study of Caenorhabditis elegans with 12 samples.

Results

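Here the *C. elegans* genes that carry the names *dod* (downstream of *daf-16*) or *dct* (*daf-16*/FOXO controlled, germline tumor affecting) were followed in isolated gonad cells. The rule was the name: all protein-coding genes of the count table called *dod* or *dct* with a number were taken, which gave 27 of the 46687 genes in the table, of which 20528 were protein-coding. There were 10 *dod* and 17 *dct* genes, with 2 on chromosome I, 4 on II, 2 on III, 9 on IV, 8 on V and 2 on X. The study sorted GFP-positive cells of the proximal somatic gonad (PSG) from adult worms and sequenced their RNA to see what DAF-16/FOXO controls in these cells as the animal ages. All animals carried the reduction-of-function allele *daf-2(e1370)*, written *daf-2(rf)*, and a single-copy *Pfos-1a::gfp* transgene, so the sorted cells are those in which the *fos-1a* promoter gave enough GFP to be gated. The double mutant *daf-16(0); daf-2(rf)* carried the null allele *daf-16(mu86)* in addition. Both genotypes were collected untreated as adults, at day 1 (called D1) and at day 7 (D7), each from pooled, synchronized populations, with 3 biological replicates for each of the 4 groups and 12 libraries in all. No *daf-2(+)* animals were sequenced, so every genotype difference given here compares animals with and without *daf-16* in a *daf-2(rf)* background.

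DAF-16 is the worm FOXO transcription factor. The insulin/IGF receptor DAF-2 signals through a kinase cascade that keeps DAF-16 out of the nucleus, and when DAF-2 activity is reduced DAF-16 enters the nucleus and many genes change. The *dod* genes were named in whole worms, where *dod-3* and *dod-6* belonged to the group with more transcript when DAF-16 is active and *dod-17* to *dod-24* to the group with less. The *dct* genes were named for DAF-16-dependent expression together with an effect of their RNAi on germline tumors. *dod-17*, *dod-22*, *dod-24* and *dct-17* encode CUB-like domain proteins known from the response to pathogens, mainly in the intestine. *dct-1* encodes the worm relative of BNIP3 and NIX, a mitophagy receptor, and *dct-3*, now named *pals-39*, belongs to the *pals* family, which is known from the response to intracellular pathogens.

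The number of reads counted on genes lay between 6183054 and 16407304 for each library, and the 10 most abundant genes took 27.3% to 73.5% of them. Levels are read counts per 1000000 effective reads (CPM) after TMM scaling over the 12 libraries, on which 1 read was worth 0.0251 to 0.373 CPM. The TMM factors, of which a larger one lowers the CPM, differed between groups. They were 3.22 and 2.17 in *daf-2(rf)* D7 replicates 2 and 3. In the double mutant D1 libraries they were 0.434, 0.784 and 0.385, and in the other libraries 0.652 to 1.40. The targeted gene *daf-16* lay between 13.3 and 43.5 CPM in the 6 *daf-2(rf)* libraries and between 4.95 and 18.6 CPM in the 6 double mutant libraries, and the genotypes did not overlap on either day. Of 9 PSG markers, 8 were in the table, and their summed level was 2361 to 11870 CPM across the 12 libraries, with reads of *fos-1*, *fln-1*, *plc-1*, *itr-1* and *nmy-1* in every library. Most of this sum came from *nmy-1* alone (group means of 2435 to 7567 CPM). On the same list *egl-13* (group means of 0.517 to 1.98 CPM) and *lin-29* (0.175 to 0.347 CPM) were rare. No marker of the PSG list was called in the 4 pairwise comparisons of genotype or age, but *itr-1* was called in the interaction of genotype and age (-3.22, adjusted p = 0.0462, edgeR), and the list's median log2 fold change between the genotypes was 1.08 on D1 and -0.65 on D7. In bulk RNA, fewer cells of a type and less RNA per cell cannot be told apart.

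Most of the 27 genes were rare in these cells. No read was found for *dct-7*, *dct-8*, *dct-14* and *dct-19*, and *dct-5*, *dct-9*, *dct-12*, *dct-13* and *dct-15* had at most 3 reads in each library. These 9 genes were not detectable at this depth, where 0 reads allow up to 3. The other 18 had more than 3 reads in at least 1 library. Of these, 13 passed the filter on rare genes (over 10 reads in each of the 3 replicates of a group) in at least 1 of the 5 tests, and 5 passed in all 5. The 5 below the filter in every test were *dod-3*, *dod-21*, *dct-10*, *dct-17* and *dct-18*, with 38 to 145 reads each over the 12 libraries.

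Per kilobase of exon, and averaged over the 4 groups, the most abundant member was *dct-16* (50.3 CPM per kb), followed by *dod-19* (16.0), *dct-1* (13.9), *dod-6* (10.1) and *dod-23* (7.99). The order differed between groups. In *daf-2(rf)* D1 cells *dod-6* led with 30.2 CPM per kb, and *dct-1* and *dct-16* both followed at 15.3. In double mutant D1 cells *dct-16* led with 173.9 CPM per kb, ahead of *dod-23* at 24.9 and *dod-24* at 22.4. On D7 *dct-1* led in *daf-2(rf)* cells (12.57 CPM per kb) and *dod-19* in the double mutant (44.5 CPM per kb). Of these 5 members *dct-1* had the most even level, with group means between 12.1 and 20.4 CPM.

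**Figure D1:**
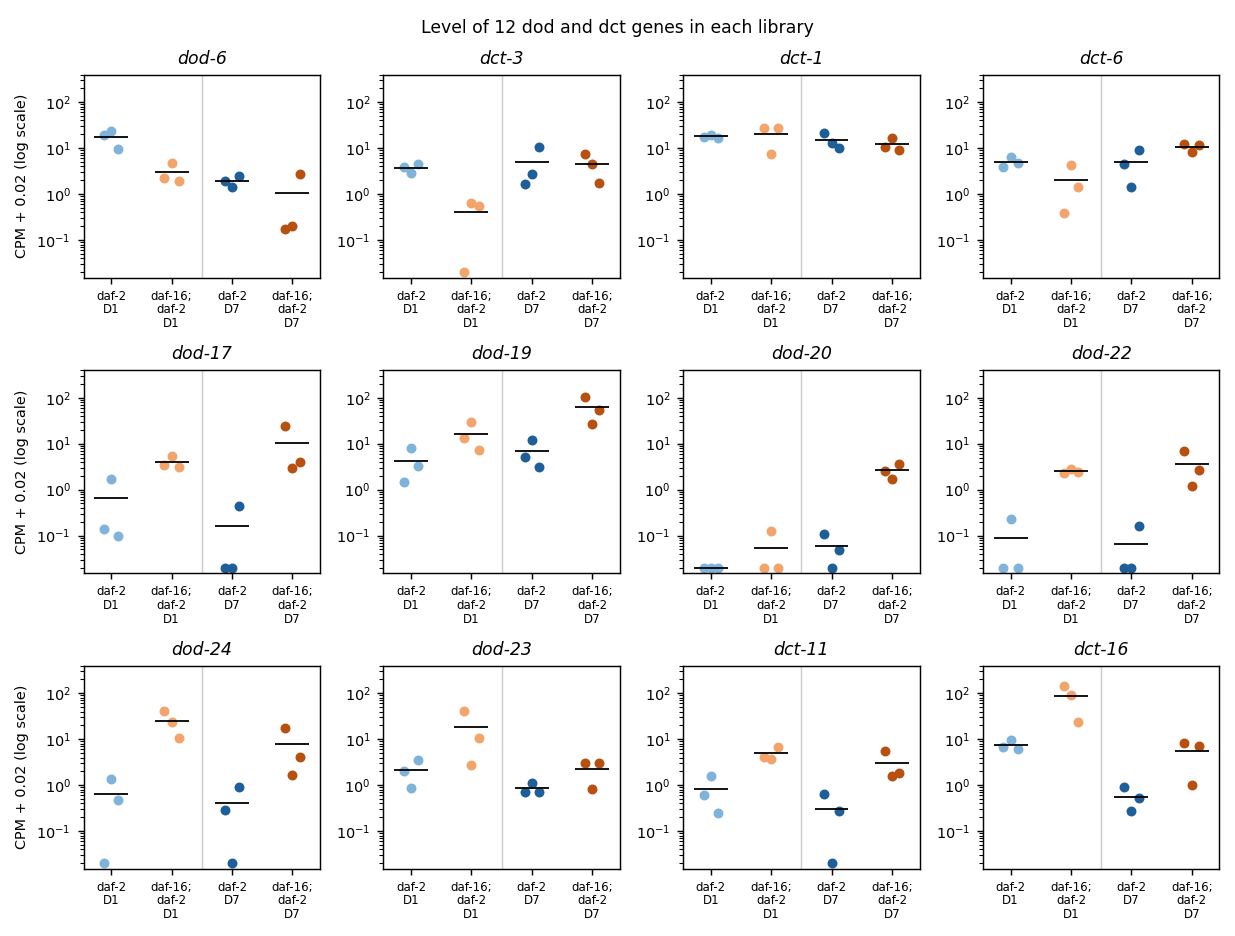
CPM of 12 *dod* and *dct* genes in each library, on a log axis after adding 0.02, with 1 point per library (3 per group) and a line at the group mean. Points at the bottom of a panel are libraries without a read: *dod-20* has more than 1 CPM in the 3 double mutant D7 libraries only, and *dct-1* stays within 1 decade throughout.

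On D7, 1 of the 13 members tested was called, with less RNA in *daf-2(rf)* cells. The gene *dod-20* (B0554.6, WBcel235 chromosome V, 422498 to 424166, plus strand) was this member. Its reads numbered 1, 0 and 1 in *daf-2(rf)* (0.0873, 0 and 0.0282 CPM) and 50, 27 and 48 reads in the double mutant (2.59, 1.68 and 3.56 CPM). The groups did not overlap, and the level of *dod-20* in *daf-2(rf)* was lower by at least 18.5-fold, setting the 3 reads that a count of 0 allows as the level of each *daf-2(rf)* library (adjusted p = 0.0398, edgeR's quasi-likelihood test, Benjamini-Hochberg adjusted over 7933 genes). A gene was called at an adjusted p under 0.05 with a log2 fold change of 1 or more in either direction. Calls made up 1.15% of the 7933 genes (0.328% with more and 0.819% with less RNA in *daf-2(rf)*). The call of *dod-20* was lost in 5 of the 6 fits that left out 1 library each (adjusted p up to 0.131) and held only without *daf-2(rf)* D7 replicate 1 (adjusted p = 0.0439).

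The pathogen-response genes *dod-17*, *dod-22* and *dod-24* had the next largest differences among the members whose groups did not overlap. *dod-17* (K10D11.1) was at 0, 0 and 0.424 CPM in the D7 *daf-2(rf)* libraries and at 24.5, 2.92 and 4.01 CPM in the double mutant. *dod-22* (F55G11.5) was at 0, 0 and 0.141 CPM against 6.83, 1.18 and 2.67 CPM, and *dod-24* (C32H11.12) at 0.262, 0 and 0.904 CPM against 17.8, 1.68 and 4.01 CPM. For all 3 genes every double mutant library lay above every *daf-2(rf)* library, and double mutant replicate 1 was the highest. None was called: the log2 fold change was -5.91 (SE 1.35, adjusted p = 0.0750) for *dod-17*, -5.84 (SE 1.16, 0.0558) for *dod-22* and -4.25 (SE 1.29, 0.136) for *dod-24* in edgeR's quasi-likelihood test. Without double mutant D7 replicate 1 the values were -4.35, -4.96 and -2.79 in the same order. Without *daf-2(rf)* D7 replicate 3 the other *daf-2(rf)* libraries held 0 reads of *dod-17* and *dod-22* and at most 3 of *dod-24*, so that no fold can be given beyond a bound.

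Of the other members on D7, *dod-19* (ZK6.10, chromosome V, 411779 to 414760, minus strand), which lies 7.74 kb from *dod-20*, was at 5.06, 12.1 and 3.16 CPM in *daf-2(rf)* and at 106.0, 26.9 and 53.9 CPM in the double mutant. Its groups did not overlap, and its log2 fold change of -3.20 (SE 0.65) had an adjusted p of 0.0583 (edgeR). *dct-16* (Y38H6C.1, chromosome V, 20497922 to 20499073, minus strand) was at 0.873, 0.251 and 0.509 CPM against 8.43, 0.994 and 6.97 CPM (-3.41, SE 0.83, adjusted p = 0.0883, edgeR), again without overlap, with double mutant replicate 2 just above the highest *daf-2(rf)* library. *dct-11* (W06B11.3, chromosome X, 5838039 to 5839757, minus strand) was at 0.611, 0 and 0.254 CPM against 5.64, 1.55 and 1.78 CPM (-3.62, SE 1.13, adjusted p = 0.145, edgeR), with no overlap either.

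*dod-23* and *dct-6* had negative values on D7 with overlapping groups. *dod-23* was at 0.699, 1.08 and 0.706 CPM in *daf-2(rf)* and at 2.95, 0.807 and 3.04 CPM in the double mutant, of which replicate 2 lay within the *daf-2(rf)* range (-1.43, SE 0.60, adjusted p = 0.247, edgeR). *dct-6* was at 4.45, 1.41 and 8.98 CPM against 12.3, 8.39 and 11.8 CPM (-1.11, SE 0.60, adjusted p = 0.357, edgeR).

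The mitophagy receptor gene *dct-1* (C14F5.1, chromosome X, 7954355 to 7956191, plus strand) showed overlapping D7 groups of 20.9, 13.2 and 10.1 CPM in *daf-2(rf)* and 10.7, 16.6 and 9.05 CPM in the double mutant (log2 fold change 0.27, SE 0.36, adjusted p = 0.714, edgeR). *dct-3* overlapped as well, at 1.66, 2.79 and 10.5 CPM against 7.39, 4.47 and 1.71 CPM (0.18, SE 0.75). *dod-6* (T20G5.7, chromosome III, 10197716 to 10198352, plus strand) was at 1.92, 1.43 and 2.49 CPM in *daf-2(rf)* and at 0.155, 0.186 and 2.75 CPM in the double mutant. Its log2 fold change was 0.97 (SE 0.99), and it was 3.50 without double mutant D7 replicate 3, the 1 double mutant library that reached the *daf-2(rf)* level. *dod-18*, which encodes a Maf-like protein, had a log2 fold change of 0.00 when rounded (SE 0.48), but its reads cannot be told apart from those of *rskn-2* and C54G4.7, which overlap it on the opposite strand.

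Of the 13 members tested on D7, 10 had a negative and 3 a positive log2 fold change, with a median of -3.20 against 0.03 over the 7933 genes tested, 52.0% of which were positive. The unadjusted p was under 0.05 for 8 of the 13, against 18.8% of all genes, and in 7 the 3 *daf-2(rf)* libraries lay below the 3 double mutant libraries, against 13.3% of all genes. No member had *daf-2(rf)* entirely above the double mutant (12.3% of all genes). These counts cover members that passed the filter, and 7 of the 13 (*dod-17*, *dod-20*, *dod-22*, *dod-23*, *dod-24*, *dct-11* and *dct-16*) passed through the double mutant libraries alone, so that their being higher there was partly set by the filter. Without a filter, the *daf-2(rf)* mean was the lower for 12 and the higher for 6 of the 18 members with more than 3 reads in some library. DESeq2's Wald test called 7 of the 13, all lower in *daf-2(rf)*, where edgeR called 1, and it called 8.86% of all genes it tested.

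**Figure D2:**
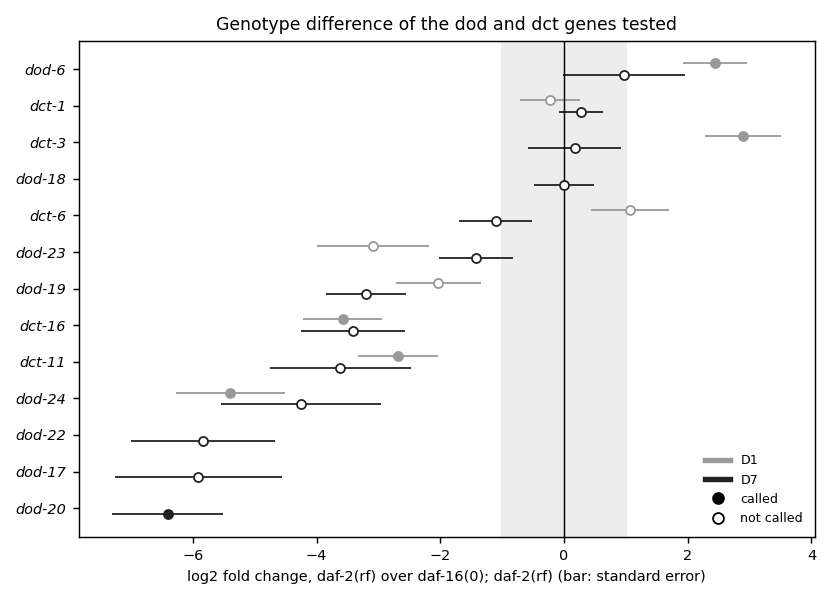
log2 fold change (*daf-2(rf)* over the double mutant) of each *dod* and *dct* gene tested on D1 (grey, 9 genes) and on D7 (black, 13 genes), with its standard error as a bar; filled points were called, open points were not, and the grey band marks an absolute log2 fold change under 1. The D7 points run from -6.41 for *dod-20* to 0.97 for *dod-6*, and 10 of the 13 lie left of 0.

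A group of 5 members lies within 41.6 kb of chromosome IV (WBcel235, 12936738 to 12978344), from *dod-21* over *dod-24*, *dct-19* and *dod-22* to *dod-17*. The stretch holds 13 protein-coding genes, 11 of them with reads. Over the 13 genes together, the *daf-2(rf)* D7 libraries had 11, 94 and 87 reads and the double mutant D7 libraries 1411, 155 and 221 reads, and on D1 there were 8, 57 and 31 against 148, 436 and 113. On both days each double mutant library had more reads here than any *daf-2(rf)* library, before any scaling. On D7, 5 of the 13 genes were tested. All 5 passed the filter through the double mutant libraries alone, so that the sign of their log2 fold changes (all negative) was partly set by the filter. Of the 5, 2 that are not members were called: F55G11.8 (-4.20, SE 0.77, adjusted p = 0.0477) and F55G11.2 (less abundant in *daf-2(rf)* by at least 31.9-fold, adjusted p = 0.0446, edgeR). F55G11.4, between them and *dod-17*, was below the filter, with 110 reads in *daf-2(rf)* and 102 in the double mutant on D7. Several of these genes are copies of one another, and how the counting treated reads that fit more than 1 gene is not given in the sources used here, so the split of reads between them is uncertain.

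**Figure D3:**
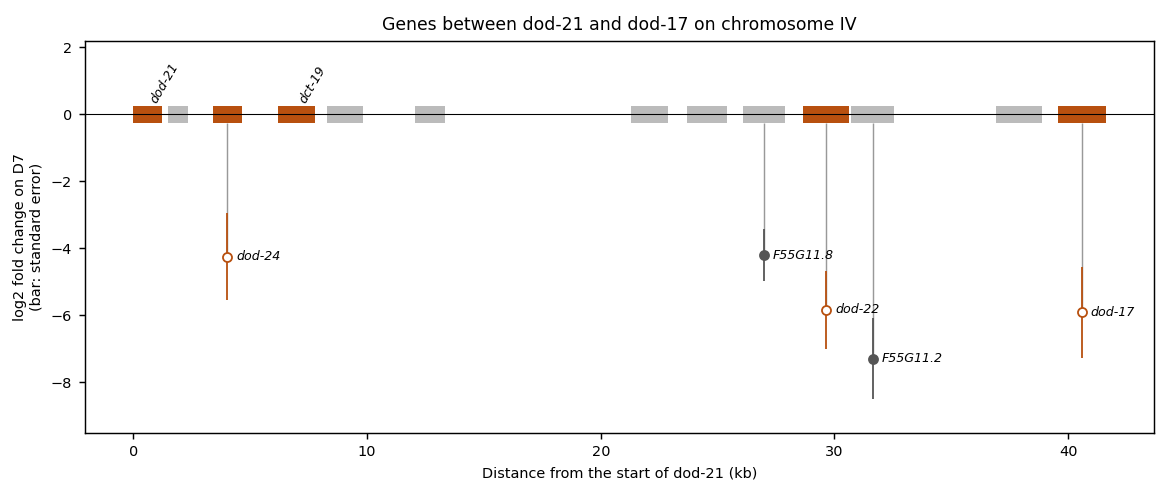
The 13 protein-coding genes from *dod-21* to *dod-17* drawn to scale as boxes by distance from the start of *dod-21* (orange, *dod* and *dct* genes, grey, others), with the D7 log2 fold change (*daf-2(rf)* over the double mutant) and its standard error under each of the 5 genes tested; filled points were called. All 5 passed the filter through the double mutant alone and lie below -4, and the 2 called are F55G11.8 and F55G11.2.

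On D1, 9 members were tested and 5 were called, of which 2 had more and 3 less RNA in *daf-2(rf)*. The genes called made up 3.51% of the 6430 tested (1.26% higher and 2.26% lower). *dod-6* was at 19.5, 23.4 and 9.80 CPM in *daf-2(rf)* and at 2.24, 4.64 and 1.93 CPM in the double mutant. Every *daf-2(rf)* library lay above every double mutant library, and *dod-6* was higher in *daf-2(rf)* by 2.44 on the log2 scale (SE 0.52, adjusted p = 0.0334, edgeR's quasi-likelihood test, Benjamini-Hochberg adjusted). *dct-3* (C54D10.7, chromosome V, 12441665 to 12443835, minus strand), the *pals* gene, was at 3.81, 2.82 and 4.59 CPM against 0, 0.619 and 0.526 CPM. It was higher in *daf-2(rf)* by 2.89 on the log2 scale (SE 0.62, adjusted p = 0.0334, edgeR), on 9 reads in all in the double mutant.

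The 3 members called lower in *daf-2(rf)* on D1 were *dod-24*, *dct-16* and *dct-11*. *dod-24* was at 0, 1.36 and 0.467 CPM in *daf-2(rf)* and at 41.8, 23.6 and 10.7 CPM in the double mutant, a log2 fold change of -5.39 (SE 0.89, adjusted p = 0.0202, edgeR). *dct-16* was at 6.79, 9.71 and 6.14 CPM against 140.7, 93.7 and 23.3 CPM (-3.58, SE 0.64, adjusted p = 0.0235). *dct-11* was at 0.596, 1.57 and 0.233 CPM against 4.11, 3.71 and 6.84 CPM (-2.69, SE 0.64, adjusted p = 0.0496). In none of the 3 did the groups overlap (14.0% of all genes lay apart in this direction and 18.2% in the other), and for *dod-24* the lowest double mutant library was still several times the highest *daf-2(rf)* library. The adjusted p of *dod-24* rose above the threshold on leaving out *daf-2(rf)* D1 replicate 2 or 3 (up to 0.0855), that of *dct-16* on leaving out any 1 *daf-2(rf)* D1 library (up to 0.0938), and that of *dct-11* on leaving out any library but double mutant replicate 2 (up to 0.186). The calls of *dod-6* (up to 0.108) and *dct-3* (up to 0.141) were likewise lost without any 1 of the 3 *daf-2(rf)* libraries or without double mutant replicate 3, and that of *dod-6* also without double mutant replicate 1.

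Among the members tested and not called on D1, *dod-23* (F49E12.2, chromosome II, 8398160 to 8399160, minus strand) was at 2.03, 0.835 and 3.58 CPM in *daf-2(rf)* and at 41.8, 2.68 and 10.5 CPM in the double mutant. Double mutant replicate 2 lay within the *daf-2(rf)* range, and without it the log2 fold change of -3.09 (SE 0.90, adjusted p = 0.0867) passed the threshold (adjusted p = 0.0236, edgeR). Without double mutant replicate 1, the highest library, it was -1.53 (adjusted p = 0.277). *dod-19* was at 1.43, 8.14 and 3.19 CPM against 13.1, 29.0 and 7.19 CPM (-2.03, SE 0.69, adjusted p = 0.122, edgeR), with an overlap of *daf-2(rf)* replicate 2 and double mutant replicate 3. *dct-1* overlapped, at 17.16, 19.63 and 17.03 CPM against 26.88, 7.43 and 27.02 CPM (-0.23, SE 0.48), and so did *dct-6*, at 3.93, 6.26 and 4.75 CPM against 0.373, 4.23 and 1.40 CPM (1.07, SE 0.62). The median over the 9 tested members was -2.03, against -0.02 over the 6430 genes (49.1% of which were positive), and 7 of the 9 had an unadjusted p under 0.05 (24.9% of all genes). Of the 9, 3 passed the filter through *daf-2(rf)* alone (*dod-6*, *dct-3* and *dct-6*) and 3 through the double mutant alone (*dod-23*, *dod-24* and *dct-11*). In each the difference had the sign of that group, so that its direction was partly set by the filter. This limit also holds for the D1 calls of *dod-6*, *dct-3*, *dod-24* and *dct-11*, for the median and for the counts set against all genes.

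Below the filter on D1, *dod-22* had 0, 2 and 0 reads in *daf-2(rf)* and 6, 27 and 14 in the double mutant (2.24, 2.79 and 2.46 CPM), a difference of at least 8.27-fold. *dod-17* was at 0.119, 1.67 and 0.0778 CPM against 3.36, 5.26 and 3.16 CPM. Neither gene overlapped between the groups, and neither was tested. *dod-20* had 1 read in the 6 D1 libraries together. Over the 18 members with more than 3 reads in some library, the *daf-2(rf)* mean was the lower for 13 and the higher for 5 on D1.

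The genotype differences on the 2 days come from separate libraries and can be set side by side. Of the 9 members tested on both days, 7 had the same sign: *dod-6* and *dct-3* were positive on both, and *dod-19*, *dod-23*, *dod-24*, *dct-11* and *dct-16* negative on both. The D7 value of *dct-3* was only 0.18 (SE 0.75). On both days *dod-6* passed the filter through *daf-2(rf)* alone, and *dod-23*, *dod-24* and *dct-11* through the double mutant alone. Their matching signs were partly set by the filter. The share of all genes with the same sign on both days was not counted. *dct-1* and *dct-6* had opposite signs, and neither was called on either day. In the interaction test over the 12 libraries, which asks whether the genotype difference itself changed with age, none of the 13 members tested was called by edgeR (0.704% of 8096 genes were), none by DESeq2 (10.4% of all genes were), and 2 had an unadjusted p under 0.05 (23.6% of all genes did). These were *dct-3*, where the difference was lower on D7 by a log2 value of -2.85 (SE 1.10, adjusted p = 0.148, edgeR), and *dct-6* (-2.27, SE 0.92, adjusted p = 0.162, edgeR). For *dod-20* the interaction could not be measured (SE 18.05), because on D1 it had 0 reads in *daf-2(rf)* and 1 in the double mutant. Without a filter on low counts edgeR called 2 members, *dod-17* and *dct-3* (adjusted p = 0.0404 for *dct-3*), and 3.06% of all genes.

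With age, 2 members fell in *daf-2(rf)* cells. Called genes were 0.218% of the 7337 tested (0.0681% higher and 0.150% lower on D7), and 7 members were tested. *dod-6* went from 19.5, 23.4 and 9.80 CPM on D1 to 1.92, 1.43 and 2.49 CPM on D7 and *dct-16* from 6.79, 9.71 and 6.14 CPM to 0.873, 0.251 and 0.509 CPM. *dct-16* passed the filter through the D1 libraries alone. The ages did not overlap for either gene, with D7 below D1 (14.9% of all genes), and no member had D7 entirely above D1 (13.5%). *dod-6* fell by 3.13 (SE 0.43) and *dct-16* fell by 3.85 (SE 0.53) on the log2 scale, each with an adjusted p of 0.0244 in edgeR's quasi-likelihood test, Benjamini-Hochberg adjusted. The other 5 members overlapped between the ages, with log2 fold changes from -0.25 for *dct-1* to 0.72 for *dod-19*. The median of the 7 was -0.15 against 0.07 over all genes tested. The call of *dod-6* was lost without *daf-2(rf)* D1 replicate 1 or 2 or D7 replicate 2 or 3 (adjusted p up to 0.109), and that of *dct-16* without any library but D7 replicate 1 (up to 0.103).

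In double mutant cells, *dod-20* was the 1 member of 12 tested that was called with age. It had 0, 1 and 0 reads on D1 and 50, 27 and 48 on D7, and was at least 4.0-fold higher on D7 (adjusted p = 0.0407, edgeR's quasi-likelihood test, Benjamini-Hochberg adjusted), a small bound because 1 read was worth up to 0.373 CPM in the D1 libraries. Called genes were 0.583% of the 7541 tested (0.199% higher and 0.385% lower). In *daf-2(rf)* cells *dod-20* had 0 reads on D1 and 2 on D7, and a difference with age was not detectable there at this depth. The call was lost without double mutant D1 replicate 1 or 3 or D7 replicate 2 or 3 (adjusted p up to 0.183).

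Several members missed the threshold with age in the double mutant although their groups did not overlap. *dct-16* went from 140.7, 93.7 and 23.3 CPM on D1 to 8.43, 0.994 and 6.97 CPM on D7, without overlap (-3.98, SE 0.87, adjusted p = 0.0585, edgeR). *dct-3* went from 0, 0.619 and 0.526 CPM to 7.39, 4.47 and 1.71 CPM (3.25, SE 0.78, adjusted p = 0.0601) and *dct-6* (F25B5.1, chromosome III, 5966416 to 5971511, plus strand) from 0.373, 4.23 and 1.40 CPM to 12.3, 8.39 and 11.8 CPM (2.25, SE 0.62, adjusted p = 0.0648), both without overlap. Together with *dod-20*, 3 of the 12 members tested had D7 entirely above D1 (21.1% of all genes) and 1, *dct-16*, entirely below (17.6%). *dod-20*, *dct-3* and *dct-6* passed the filter through the D7 libraries alone, so that their direction was partly set by the filter. In *daf-2(rf)* cells *dct-3* and *dct-6* had log2 fold changes of 0.48 (SE 0.64) and 0.03 (SE 0.59) with age. *dod-19* (1.90, SE 0.64, adjusted p = 0.0945) and *dod-23* (-2.99, SE 0.91, adjusted p = 0.0772) overlapped between the ages in the double mutant. Leaving out double mutant D1 replicate 2 brought *dct-16*, *dct-6*, *dod-19* and *dod-23* past the threshold (adjusted p of 0.0424, 0.0334, 0.0499 and 0.0347, edgeR), and leaving out double mutant D7 replicate 1 did so for *dct-16* (0.0489) and *dod-24* (0.0485). Other left-out libraries weakened these results: the adjusted p reached 0.196 for *dct-16*, 0.202 for *dct-6*, 0.241 for *dod-19* and 0.263 for *dod-23*, with *dod-19* at 1.24 without double mutant D7 replicate 1 and *dod-23* at -1.49 without double mutant D1 replicate 1. Where edgeR called 1 of the 12, DESeq2's Wald test called 6, and 17.99% of all genes it tested.

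**Figure D4:**
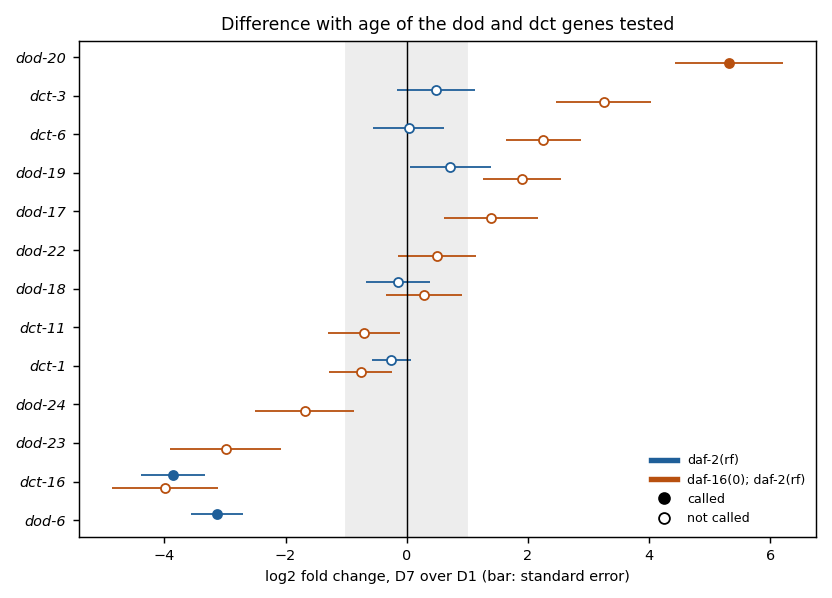
log2 fold change with age (D7 over D1) of each *dod* and *dct* gene tested in *daf-2(rf)* cells (blue, 7 genes) and in double mutant cells (orange, 12 genes), with its standard error as a bar; filled points were called, and the grey band marks an absolute log2 fold change under 1. *dct-16* lies near -4 in both genotypes, while *dct-3* and *dct-6* lie above 2 in the double mutant and below 1 in *daf-2(rf)*.

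Markers of the intestine moved in the same direction as most members. All 13 intestine markers were in the table, and their summed level was 25.9 to 60.1 CPM in *daf-2(rf)* D7 libraries and 141 to 1213 CPM in double mutant D7 libraries, without overlap. On D7, 9 of the 13 were tested, all with a negative log2 fold change (median -3.39), and 2 were called lower in *daf-2(rf)*, the intestinal actin gene *act-5* and the peptide transporter gene *pept-1*. On D1 the sums were 422 to 684 CPM against 491 to 2048 CPM, 8 were tested, all negative (median -1.98), and 4 were called (*act-5*, *ifb-2*, *asp-1* and *cpr-1*). Double mutant D7 replicate 1 had the highest sum (1213 CPM), as it had the highest *dod-17*, *dod-19*, *dod-22* and *dod-24*, and replicate 2 the lowest (141 CPM), as it had the lowest of these 4 genes, but *dod-20* was highest in replicate 3. On D1 the order differed between members. Double mutant replicate 2 had the lowest sum (491 CPM, against 2048 CPM in replicate 1 and 1512 CPM in replicate 3). It had the highest *dod-17*, *dod-19* and *dod-22*. The yolk protein genes *vit-2*, *vit-5* and *vit-6* weigh heavily in these sums (means of 583.0, 157.4 and 188.4 CPM in double mutant D1). *vit-2* had 1588 reads in double mutant D1 replicate 2 and 5065 in replicate 3, while *asp-1* had 1092 and 496. The order of the sums thus depends on the markers in the list. Replicate 1, with the highest sum, had the highest *dod-23*, *dod-24* and *dct-16*, and *dct-11* was highest in replicate 3. The D7 sum was also below the D1 sum in *daf-2(rf)* cells, where *dod-6* and *dct-16* fell. Most of that D1 sum came from *vit-2*, *vit-5* and *vit-6* (means of 267.8, 52.7 and 189.1 CPM). These yolk protein genes were called lower on D7 (11.2, 4.88 and 7.30 CPM). Of the 8 intestine markers tested with age in *daf-2(rf)*, 5 had a negative and 3 a positive log2 fold change. No marker but these yolk protein genes was called there. The defining transcription factor gene *elt-2* had 0 to 16 reads and the gut esterase gene *ges-1* 0 to 9 reads per library. The part of intestinal RNA in the members' differences was not tested.

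Markers of other cell types differed between groups as well. Of the 10 germ line markers, 6 were tested on D1 and 5 were called lower in *daf-2(rf)*, with summed levels of 21.3 to 25.3 CPM against 101 to 132 CPM, while none was called between the genotypes on D7. Of the 3 coelomocyte markers, 2 were tested on D7, and neither was called, and the list summed to 0.226 to 23.9 CPM in *daf-2(rf)* and 5.95 to 252 CPM in the double mutant. With age in the double mutant, where *dod-20* was called higher, the coelomocyte sum lay between 1.87 and 3.40 CPM on D1 and in the range just given on D7, and the germ line sum was 24.4 to 31.3 CPM on D7, both without overlap, with the germ line marker *cbd-1* called lower. Their part in the members' differences was not tested.

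**Figure D5:**
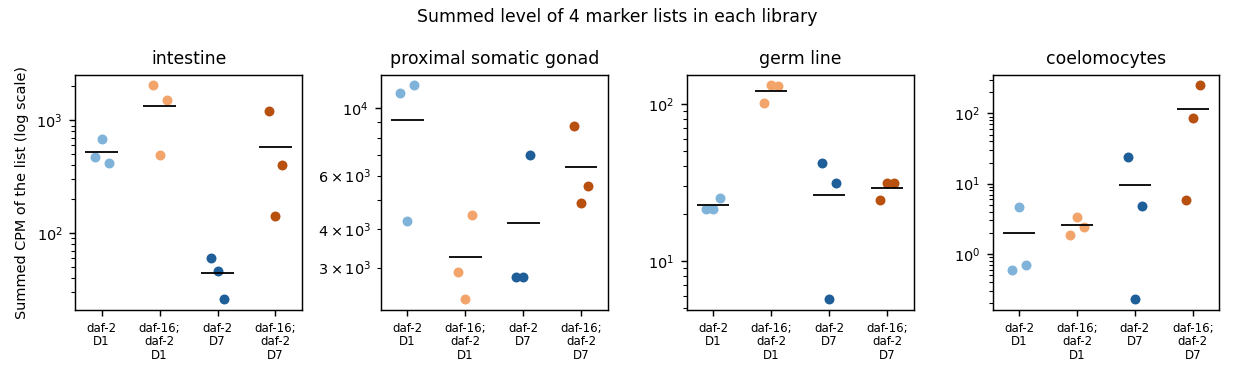
Summed CPM of 4 marker lists (intestine, proximal somatic gonad, germ line and coelomocytes) in each library, on log axes that differ between panels, with 1 point per library (3 per group) and a line at the group mean. The intestine list lies at 25.9 to 60.1 CPM in the 3 *daf-2(rf)* D7 libraries and above 100 CPM in the other 9 libraries.

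Genes beside the members were also counted. There were 181 protein-coding genes within 15 kb of a member. On D7, 54 of them were tested, with a median log2 fold change of -0.19, and 4 were called, all lower in *daf-2(rf)*. Of these 4, F55G11.8, F55G11.2 and K10D11.5 (at least 20.2-fold lower, adjusted p = 0.0446) lie beside *dod-22* and *dod-17* on chromosome IV, and ZK6.11 (-3.40, SE 0.61, adjusted p = 0.0469, edgeR) lies beside *dod-19* and *dod-20* on chromosome V. On D1, 48 neighbours were tested (median -0.14) and 3 were called, all higher in *daf-2(rf)*: F07F6.2 beside *dct-5*, and F35E12.10 and F35E12.2 beside *dct-17*. F35E12.10 was at 48.8 ± 12.5 CPM (SD, n = 3) in *daf-2(rf)* D1 cells and at 4.69 ± 2.78 CPM (SD, n = 3) in the double mutant. With age no neighbour was called by edgeR, of 46 tested in *daf-2(rf)* and 53 in the double mutant.

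The pathway above these genes and other genes known to be activated by DAF-16 were also examined. Of 17 genes from the insulin receptor to DAF-16, all were tested on D7 and none was called by edgeR, and of 15 tested on D1 the kinase gene *akt-1* was called, higher in *daf-2(rf)* (67.8 ± 13.4 against 13.5 ± 5.18 CPM, SD, n = 3 each). Of 25 other genes known in whole worms to be activated by DAF-16, 19 were tested on D7, with a median of 1.85 and 16 positive values, and 2 were called higher in *daf-2(rf)*. These were the superoxide dismutase gene *sod-5* (267.5 ± 70.7 against 0.995 ± 0.686 CPM, SD, n = 3 each) and the metallothionein gene *mtl-1* (at least 6.10-fold). On D1, 15 were tested, with a median of -1.64, and only *sod-3* was called higher in *daf-2(rf)* while 7 were called lower: *mtl-2* and the small heat shock genes *hsp-16.1*, *hsp-16.11*, *hsp-16.2*, *hsp-16.41*, *hsp-16.48* and *hsp-16.49*, several of which are near-identical copies that can share reads. With age, *sod-5* was called higher in *daf-2(rf)* cells and the small heat shock gene *sip-1* lower in double mutant cells. In the interaction test *sod-5* and *hsp-16.2* were called, whereas none of the *dod* and *dct* genes was, and a difference between the lists was not tested.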

How the data were processed

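GFP-positive PSG cells were sorted and their RNA was amplified with a SMARTer kit, which does not mark strand. Per the paper's methods and the submitters' processing notes, reads were aligned to WBcel235 with HISAT2 2.0.5 and counted per gene with featureCounts 1.5.0-p3. The authors deposited these read counts without normalization, and the annotation release is not given in the sources used here. The deposited FPKM values were not used.

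Members were matched by gene name and then by sequence name to Ensembl release 115 of the same build and to RefSeq, where all 27 were found. In both, *dct-10* is a pseudogene. The ends of 25 of the 27 lay within 200 bases of release 115.

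Each comparison was fitted on the whole table in R 4.3.3 with edgeR 4.0.16 (TMM, quasi-likelihood F test, Benjamini-Hochberg adjustment over all genes tested), on its 6 libraries, and the interaction on all 12. A gene was tested if each of the 3 replicates of some group had over 10 reads. Called means an adjusted p under 0.05 and, except for the interaction, a log2 fold change of 1 or more in either direction. Standard errors are approximate, back-calculated from the F statistic. P-values set the difference between groups against the spread among the 3 replicates of each group, which edgeR estimates with information from all genes tested. CPM levels used TMM over the 12 libraries. A count of 0 was taken to allow 3 reads, and these floors cover counting error only. The fits were also run on simulated counts. There every gene had the same spread between replicates, and changes were placed only in genes that were not rare. That run does not show how the fits perform on the spread of these replicates or on rare genes.

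Genes are named where called, where they were among the 3 tested members with the largest fold change in each direction without overlap in a pairwise comparison, among the 5 most abundant per kilobase, or, for neighbours within 15 kb and pathway lists, where called. *dod-18* and F55G11.4 are named beyond this rule, after their values were seen. Values of *dod-3*, *dod-21*, *dct-10*, *dct-17* and *dct-18*, which were below the filter in every test, are also given beyond it. The members and lists were chosen with earlier results of these data known. Alternatives were DESeq2 1.42.0 (Wald test), its size factors within edgeR, no filter, more than 10 reads in every library, a replicate block, a joint fit of all 12 libraries, and each library left out once.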

Additional observations from a re-analysis of the deposited data

How the results depend on the processing

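Over the fold changes of the named members, 362 values under an alternative kept their direction and their side of the threshold, 45 lost significance, 45 gained it and 16 turned in sign. DESeq2's Wald test called more members on D7 (7 of 13), on D1 (7 of 9) and with age in the double mutant (6 of 12). Over all genes it called 702 of 7924 on D7, 761 of 6411 on D1 and 651 of 7318 with age in *daf-2(rf)*. It called 1353 of 7520 with age in the double mutant and 842 of 8065 in the interaction. In the same 5 tests edgeR called 91, 226, 16, 44 and 57. Without a filter on low counts, 7 of 20 members were called on D7 and 12 of 22 on D1. With age 2 of 21 were called in *daf-2(rf)* and 8 of 21 in the double mutant, and in the interaction 2 of 23. The genes called in the 5 tests, in the same order, were 1025 of 21854, 861 of 18480, 863 of 19976, 1394 of 20830 and 703 of 22994. More than 10 reads in every library left 0 of 5, 1 of 3, 1 of 5 and 0 of 6 members called in the 4 pairwise comparisons. Over all genes 8 of 6556, 70 of 3919, 53 of 5937 and 2 of 4023 were called, with fewer genes tested. All 12 libraries in 1 fit called 5 of 13, 2 of 9, 1 of 7 and 5 of 12 members. Over all genes this fit called 262 of 7933 on D7 and 277 of 6430 on D1. With age it called 63 of 7337 in *daf-2(rf)* and 979 of 7541 in the double mutant. DESeq2 size factors changed no member's call. The cause of these shifts was not tested.

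No pairing of the libraries by replicate number was seen on average. Deviations of same-numbered libraries correlated at -0.0187 on average over 18 pairs (-0.247 to 0.204), against 0.00896 over 36 other pairs (-0.213 to 0.238). These averages cannot exclude a pairing within 1 day. With a replicate block, 0 of 13 members were called on D7, 7 of 9 on D1, 0 of 7 with age in *daf-2(rf)* and 0 of 12 with age in the double mutant. Over all genes the calls were 0 of 7933 on D7, 478 of 6430 on D1 and 15 of 7337 with age in *daf-2(rf)*. They were 67 of 7541 with age in the double mutant and 17 of 8096 in the interaction. Under the block *dct-3* on D7 became -0.17 and *dct-6* with age in *daf-2(rf)* -0.26, which was -0.010 with all 12 libraries in 1 fit, and *dct-1* on D1 was 0.039 with more than 10 reads in every library.

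Leaving out 1 library gave 0 to 1 members and 0 to 29 genes on D7, 0 to 6 members and 2 to 474 genes on D1, 0 to 2 members and 0 to 231 genes with age in *daf-2(rf)*, 0 to 5 members and 0 to 635 genes with age in the double mutant, and 0 members and 0 to 130 genes in the interaction. Signs turned among these fits only for members that were not called: *dct-3* (-1.03 to 0.71) and *dct-1* (-0.10 to 0.59) on D7, *dct-1* on D1 (-0.63 to 0.087), *dct-3* (-0.68 to 0.81), *dct-6* (-0.79 to 0.47) and *dod-19* (-0.062 to 1.55) with age in *daf-2(rf)*, and *dod-17* (-0.26 to 1.83) and *dod-22* (-0.44 to 0.91) with age in the double mutant.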

Other observations

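Some members had most of their reads in 1 library. *dod-21*, the first gene of the chromosome IV group, had 63 reads over the 12 libraries, 47 of them in double mutant D1 replicate 2. *dct-10*, annotated as a pseudogene in the newer release, had 83 reads, 50 of them in *daf-2(rf)* D7 replicate 2. Neither gene passed the filter on low counts in any test.

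The CUB-like gene *dct-17* was at 0, 0.313 and 0 CPM in *daf-2(rf)* D1 libraries and at 2.99, 4.64 and 0.351 CPM in double mutant D1 libraries. *dct-18* was at 0, 0.731 and 0 CPM against 3.36, 4.54 and 0.702 CPM. In both genes double mutant D1 replicate 3 stood near the highest *daf-2(rf)* library, and neither was tested. *dod-3* was at 0.119, 1.25 and 0.389 CPM in *daf-2(rf)* D1 libraries and at 1.12, 0 and 0.351 CPM in the double mutant, which overlap.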
